A study of Mus musculus with 6 samples.

Results

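The genes described are 6 Wnt ligands (Wnt3, Wnt4, Wnt5a, Wnt7b, Wnt10a and Wnt10b), 3 frizzled receptors (Fzd6, Fzd7 and Fzd10) and the Wnt carrier Wls, chosen by name: 10 of the 30349 genes listed. RNA was measured in primary mouse epidermal keratinocytes, in 3 p63 alphaKO libraries, numbered 9, 10 and 11, and 3 wild type libraries, numbered 13, 14 and 15. The cells of both groups came from skin taken at postnatal day 2 and grew to confluence in medium low in calcium with chelated serum and EGF. The part of Trp63, the gene of the epidermal transcription factor p63, that the p63 alphaKO genotype removes is not stated in the labels. Nor do they tie each library to an animal of its own, so p-values measure the spread between these libraries, which may be technical.

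Wnt proteins are secreted signals that carry a lipid, added in the endoplasmic reticulum by Porcn, and Wls (Wntless) binds the lipidated protein and takes it to the cell surface. There the lipid fits into a groove of a frizzled receptor, which passes the signal on through Dishevelled, either to beta-catenin in the nucleus or to the polarity of the cell. In mouse skin, Wnt signals from the epidermis start hair follicles and keep basal keratinocytes dividing, and Fzd6 orients the hairs.

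The site that ties these genes together can be read in their coding sequences. In each ligand a serine codon, in capitals, sits where the lipid is attached; the stretches are shown because this lipid is what Wls and the frizzled groove bind.
Wnt3: tgccacgggttgTCCggcagctgc
Wnt4: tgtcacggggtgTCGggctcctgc
Wnt5a: tgtcatggagtgTCTggctcctgt
Wnt7b: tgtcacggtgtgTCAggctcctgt
Wnt10a: tgccacggcaccTCAggcagctgc
Wnt10b: tgccatggaacgTCAggcagctgc
The codon just before the serine was gtg (valine) in Wnt4, Wnt5a and Wnt7b, ttg (leucine) in Wnt3, and acc or acg (threonine) in Wnt10a and Wnt10b. Wnt10a and Wnt10b shared 21 of these 24 bases, as did Wnt4 and Wnt7b, and Wnt5a and Wnt7b, whereas Wnt5a and Wnt10a shared 14. In the receptors the corresponding landmark is the motif in the intracellular tail that recruits Dishevelled, lysine and threonine codons and a tryptophan codon, in capitals, around 3 variable ones.
Fzd6: AAGACGtgcacagaaTGG
Fzd7: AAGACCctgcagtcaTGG
Fzd10: AAGACCctgcagtccTGG
Fzd7 and Fzd10 shared 17 of 18 bases, and Fzd6 shared 9 with Fzd7 and 8 with Fzd10. The stretches are from GENCODE vM21 transcripts, each within 1 coding exon of GRCm38 (mm10), written 5′ to 3′ on the coding strand; that of Wnt10b is at chr15:98772878-98772901 on the minus strand, that of Wnt10a at chr1:74803156-74803179 and that of Fzd6 at chr15:39033949-39033966, both on the plus strand.

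A level in CPM is a gene's reads per 1000000 reads in its library. The p63 alphaKO libraries held 2188705, 2999246 and 1699716 listed reads (replicates 9, 10 and 11) and the wild type libraries 3180984, 3215333 and 3146374 (replicates 13, 14 and 15). At 0 reads a level of up to 1.00 to 1.76 CPM in p63 alphaKO libraries and 0.93 to 0.95 CPM in wild type libraries, that of 3 reads, cannot be told from absence. Trp63 itself was at 49.78, 59.32 and 57.01 CPM in p63 alphaKO, against 38.02, 53.16 and 48.92 CPM in wild type, with overlap; where its reads fall relative to the altered part is not stated, so this value per gene does not check the genotype. On the first principal component (33.2% of the variance) p63 alphaKO replicate 11 (61.15) and wild type replicate 15 (13.55) stood apart from the other libraries (-26.86 to -8.74). On the second (22.9%) the wild type libraries lay at 2.97 to 38.98 and the p63 alphaKO libraries at -30.03 to -9.24. All 8 keratinocyte markers had reads in every library, with a summed level of 22490 to 31760 CPM in p63 alphaKO and 26720 to 30210 CPM in wild type. Of 10 hair follicle markers, Krt25, Krt35, Shh and Lgr5 had no read in any library, and the list summed to 276.2 to 469 CPM in p63 alphaKO and 311 to 526.9 CPM in wild type, most of it Sox9. The summed level of muscle markers was 2.28, 9.34 and 48.8 CPM over p63 alphaKO replicates 9, 10 and 11, against 44.6, 60.9 and 637 CPM over wild type replicates 13, 14 and 15. The second component ordered the libraries as these sums did, except that p63 alphaKO replicate 11 and wild type replicate 13 changed places. The part of muscle RNA in that component was not tested. That of melanocyte markers was 552, 1027 and 232 CPM in p63 alphaKO and 825, 757 and 309 CPM in wild type, lowest in the libraries that stood apart, while endothelial and immune markers reached at most 4.70 and 0.91 CPM in any library.

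No ligand, receptor or carrier gene of the 10 was called as changed in p63 alphaKO keratinocytes. A mean level of 1 CPM over the libraries was required for testing, which took in 9 of the 10 and left out Wnt5a. Wnt10b, at 0.547 ± 0.595 CPM in p63 alphaKO and 3.36 ± 1.95 CPM in wild type (SD, n = 3 each), was the member of lowest p, and the member without overlap between the groups. For Wnt4, the ligand with most reads, the ratio of pooled reads over library size, p63 alphaKO over wild type, was 0.845, and for the carrier Wls it was 1.09. Over all genes, 5 of 11716 genes passed (0.0427%; limma on log2(CPM + 1), Benjamini-Hochberg adjusted p under 0.05).

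At an unadjusted p under 0.05, limma gave 1 of the 9 (Wnt10b, lower), against 6.36% of all tested genes, or 3.35% when only genes lower in p63 alphaKO are counted. At the same unadjusted threshold, edgeR's quasi-likelihood test on the reads gave 2 of the 9 (Wnt10b and Fzd6), against 6.15% of all genes, and DESeq2 gave 1 (Wnt10b), against 5.54%. After adjustment neither called a member, with 0.0171% of all genes called by edgeR and 0.154% by DESeq2. Every p63 alphaKO library lay below every wild type one for 1 of the 9 (Wnt10b), against 5.09% of all tested genes, and 11.5% of all tested genes showed no overlap in either direction. The log2 fold change, p63 alphaKO minus wild type, was below 0 for 7 of the 9 with a median of -0.32, where 5781 of all 11716 genes (49.3%) were below 0 and the median was 0.006. Wnt7b and Wls were above 0. The signs of Wnt7b, Fzd7 and Fzd10 turned in fits with 1 library left out. That of Wnt10a turned without both wild type replicate 15 and p63 alphaKO replicate 11. The members were also chosen with earlier results of these data known.

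**Figure D1:**
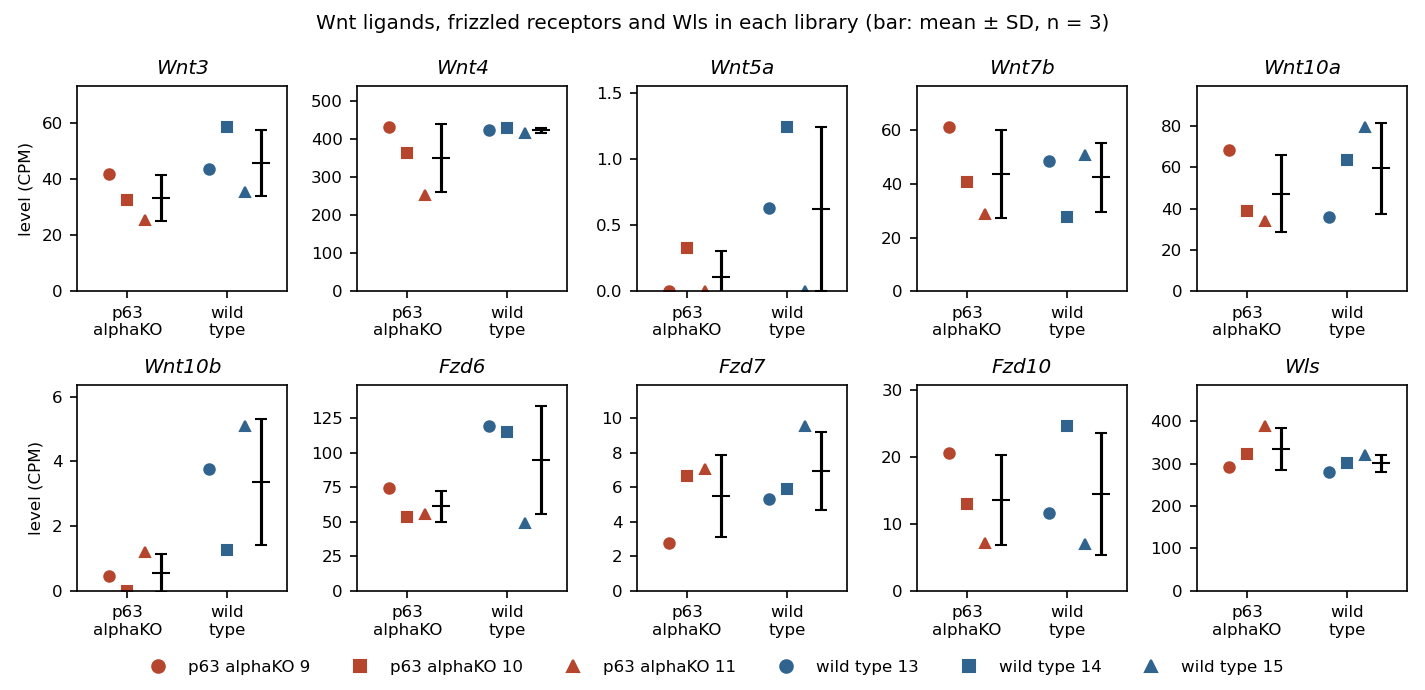
Level in CPM of each of the 10 genes in each library, p63 alphaKO on the left and wild type on the right, each panel with its own axis from 0; points are libraries and the bar is the mean ± SD (n = 3), cut at 0. The p63 alphaKO libraries of Wnt10b (0 to 1.18 CPM) all lie below the wild type ones (1.24 to 5.08 CPM), and in the other panels the groups overlap.

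Among the ligands, Wnt10b, which with Wnt10a marks the earliest hair follicle placodes, was read at 0.46, 0 and 1.18 CPM in p63 alphaKO replicates 9, 10 and 11, against 3.77, 1.24 and 5.08 CPM in wild type replicates 13, 14 and 15. These were 1, 0 and 2 reads in p63 alphaKO and 12, 4 and 16 reads in wild type, so the highest p63 alphaKO library lay just under the lowest wild type one. On the log2 scale the difference was -1.45 (SE 0.61, 95% interval -2.74 to -0.16, limma adjusted p = 0.758). Reads pooled over each group, 3 in p63 alphaKO and 32 in wild type, gave a rate ratio of 0.13 (exact 95% interval 0.0255 to 0.415), an interval that covers counting error alone and not variation between libraries. The gene lies on chromosome 15 (98770712 to 98778150, minus strand). Its 7 coding transcripts in the annotation end at 7 different positions, and a value per gene does not tell them apart.

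The fitted size for Wnt10b moved with the pseudocount, which weighs heavily on a gene of so few reads. It was -0.57 with a pseudocount of 5 CPM, -1.90 with 0.5 CPM, -2.75 by edgeR and -2.82 by DESeq2. With 1 library left out it ranged from -1.87 (without wild type replicate 14) to -1.15 (without wild type replicate 15). In 4 of those 6 fits the unadjusted limma p was above 0.05 and the 95% interval included 0, namely those that left out p63 alphaKO replicate 9, p63 alphaKO replicate 10, wild type replicate 13 and wild type replicate 15. The same held without both wild type replicate 15 and p63 alphaKO replicate 11 (-1.44, 95% interval -3.04 to 0.17). Muscle markers were also lowest in p63 alphaKO replicates 9 and 10 and highest in wild type replicate 15. Of the 10 muscle markers 6 were tested, all below 0 (median log2 fold change -2.675) and none past the threshold. At an unadjusted limma p under 0.05 were 5 of them, against 6.36% of all tested genes. Of the hair follicle markers, 5 of 10 were tested, 2 above 0 and 3 below, with a median log2 fold change of -0.11 and none past the threshold. Within that list Msx2 was at 2.28, 0.67 and 4.70 CPM in p63 alphaKO, against 9.74, 15.23 and 11.44 CPM in wild type, and Foxn1 went the other way at 48.86, 31.99 and 30.56 CPM in p63 alphaKO, against 25.14, 24.56 and 22.87 CPM in wild type, neither with overlap. Their part in the Wnt10b values was not tested. In bulk RNA, fewer cells expressing a gene and less RNA per cell cannot be told apart.

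The genes whose pattern over the 6 libraries was most like that of Wnt10b were Cggbp1, Ckap2 and Plat, with Pearson r of 0.988, 0.985 and 0.984 on log2(CPM + 1), picked as the highest of all tested genes. Cggbp1, a binding protein of CGG repeats, was at 72.98 to 82.88 CPM in p63 alphaKO and 82.38 to 99.92 CPM in wild type. Ckap2, a spindle protein of dividing cells, was at 20.66 to 31.15 CPM in p63 alphaKO and 27.98 to 49.55 CPM in wild type. Plat, tissue plasminogen activator, was at 1.00 to 1.76 CPM in p63 alphaKO and 1.55 to 3.18 CPM in wild type. In all 3, unlike Wnt10b, the groups overlapped. As in Wnt10b, the lowest library was p63 alphaKO replicate 10 and the lowest wild type library was replicate 14. Such a shared order follows largely from picking the genes by correlation over these 6 libraries and is no separate result.

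Wnt10a, a ligand of skin appendages whose loss in humans causes ectodermal dysplasia with missing teeth, was at 68.50, 38.99 and 34.09 CPM in p63 alphaKO replicates 9, 10 and 11, against 35.82, 63.41 and 79.41 CPM in wild type replicates 13, 14 and 15. Each group spanned about the same range, with p63 alphaKO replicate 9 beside the high wild type libraries and wild type replicate 13 beside the low p63 alphaKO ones. The log2 fold change was -0.32 (SE 0.33, 95% interval -1.01 to 0.37, limma adjusted p = 0.926). Leaving out wild type replicate 13 gave -0.64, leaving out p63 alphaKO replicate 9 gave -0.62, and it turned to 0.11 without both p63 alphaKO replicate 11 and wild type replicate 15. Wnt10a lies on chromosome 1 (74791516 to 74804179, plus strand).

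Wnt4, a ligand of the epidermis and its appendages, was at 432.45, 362.90 and 254.50 CPM in p63 alphaKO replicates 9, 10 and 11, against 425.43, 430.23 and 416.12 CPM in wild type replicates 13, 14 and 15. The wild type libraries were nearly level, p63 alphaKO replicate 9 lay with them, and replicate 11 was lowest. With 433 to 1384 reads per library, the counting interval of replicate 11 (231.1 to 279.6 CPM, exact 95%) did not reach that of replicate 9 (405.3 to 460.9 CPM), though such intervals take each read as its own molecule, and the reads may include PCR copies. Its log2 fold change was -0.31 (SE 0.23, 95% interval -0.79 to 0.17, limma adjusted p = 0.885), and -0.10 without p63 alphaKO replicate 11. Wnt4 lies on chromosome 4 (137277489 to 137299726, plus strand) and has 1 coding transcript.

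Wnt3, which signals through beta-catenin, was at 41.56, 32.32 and 25.27 CPM in p63 alphaKO replicates 9, 10 and 11. In wild type replicates 13, 14 and 15 it was at 43.36, 58.44 and 35.26 CPM. Of the p63 alphaKO libraries, replicate 9 lay inside the wild type range and replicates 10 and 11 below it. For Wnt3 the log2 fold change was -0.45 (SE 0.29, 95% interval -1.07 to 0.16, limma adjusted p = 0.868), and ranged from -0.63 without p63 alphaKO replicate 9 to -0.26 without wild type replicate 14. Wnt3 lies on chromosome 11 (103774150 to 103817957, plus strand).

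Wnt7b, a ligand of embryonic epidermis and hair follicle, was at 61.19, 40.66 and 28.80 CPM in p63 alphaKO replicates 9, 10 and 11, against 48.70, 27.67 and 50.82 CPM in wild type replicates 13, 14 and 15. Each group held a library near 28 CPM, and the highest value of all was in p63 alphaKO. The groups differed by a log2 fold change of 0.02 (SE 0.32, 95% interval -0.66 to 0.70, limma adjusted p = 0.998), and its sign turned without p63 alphaKO replicate 9 (-0.25) or wild type replicate 14 (-0.25). Wnt7b lies on chromosome 15 (85535437 to 85582473, minus strand). A noncoding gene on the opposite strand, AU022754, overlaps its 5′ part, with 2 reads over the p63 alphaKO libraries and 4 over the wild type ones.

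Wnt5a, a ligand that acts mostly outside the beta-catenin route and is made by dermal fibroblasts, was close to undetected, with 0, 1 and 0 reads in p63 alphaKO replicates 9, 10 and 11, against 2, 4 and 0 reads in wild type replicates 13, 14 and 15. Its mean of 0.367 CPM over all libraries was under the limit for testing. Fitted with no limit on low values the log2 fold change was -0.49 (SE 0.36, limma adjusted p = 0.915), and the pooled reads gave a ratio of 0.23 with an exact 95% interval of 0.00502 to 1.90, which includes no difference. The summed level of fibroblast markers was 17.8, 46.3 and 5.88 CPM over p63 alphaKO replicates 9, 10 and 11, against 49.0, 33.3 and 19.1 CPM over wild type replicates 13, 14 and 15, with Lum at 0 in every library. The 3 libraries with a Wnt5a read were those with the highest fibroblast sums, and the part of such cells in its reads was not tested.

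**Figure D2:**
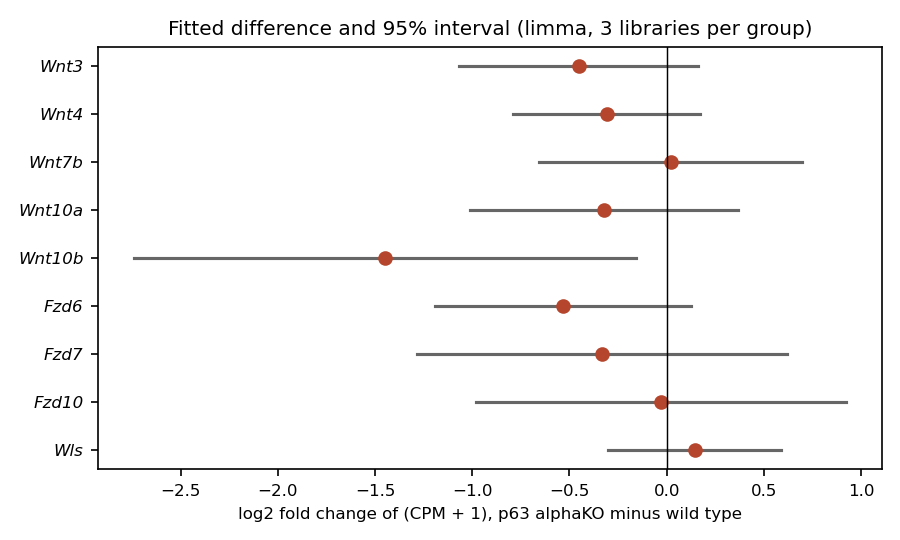
Fitted log2 fold change on log2(CPM + 1), p63 alphaKO minus wild type, for the 9 tested genes; points are limma estimates from 3 libraries per group and lines are 95% intervals. The interval of Wnt10b (-2.74 to -0.16) leaves out 0, while its adjusted p over all genes was 0.758, and the other 8 intervals include 0.

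Within each library Wnt4 took most of the ligand reads, and in percentage points the share of Wnt10a had the widest range over the libraries. Wnt4 took 71.6%, 76.4% and 74.0% of the reads of the 6 ligand genes in p63 alphaKO replicates 9, 10 and 11, and 76.3%, 73.9% and 70.9% in wild type replicates 13, 14 and 15. These are shares of reads near transcript ends, not of molecules or proteins, and rest on 585 to 1873 ligand reads per library. The share of Wnt10a was 11.3%, 8.21% and 9.91% in p63 alphaKO and 6.42%, 10.9% and 13.5% in wild type, so its lowest and its highest share, with Wilson intervals that did not overlap (5.37 to 7.66% and 12.05 to 15.2%), were both in wild type libraries. Wnt7b took 8.38 to 10.1% in p63 alphaKO libraries and its smallest share, 4.75% (95% Wilson interval 3.88 to 5.81%), in wild type replicate 14. Wnt3 took 6.80 to 7.35% in p63 alphaKO libraries and its largest share, 10.0%, in that same wild type library. Wnt10b took 0.0756%, 0% and 0.342% in p63 alphaKO and 0.676%, 0.214% and 0.866% in wild type. The Wilson intervals of p63 alphaKO replicate 11 (0.0938 to 1.24%) and wild type replicate 14 (0.0831 to 0.548%) overlapped.

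**Figure D3:**
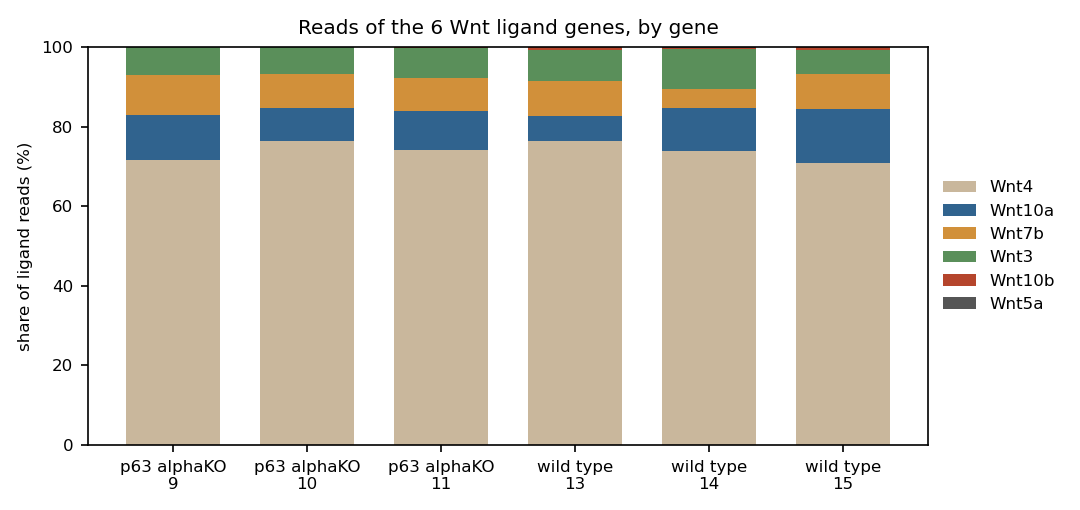
Share in percent of the reads of the 6 Wnt ligand genes taken by each gene, 1 bar per library, p63 alphaKO libraries on the left. Wnt4 takes 70.9 to 76.4% in every library, and Wnt10b is visible as a thin band in wild type replicates 13 and 15.

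Of the receptors, Fzd6, which orients hair follicles in mouse skin, was at 73.98, 52.99 and 55.84 CPM in p63 alphaKO replicates 9, 10 and 11, against 119.08, 114.71 and 49.24 CPM in wild type replicates 13, 14 and 15. The first 2 wild type libraries lay well above every p63 alphaKO library, and wild type replicate 15 lay below all of them. The fitted log2 fold change was -0.53 (SE 0.31, 95% interval -1.19 to 0.12, limma adjusted p = 0.836), and -0.94 without wild type replicate 15 (adjusted p = 0.467). Without both wild type replicate 15 and p63 alphaKO replicate 11 it was -0.89 (SE 0.22, adjusted p = 0.0963), still not called. That fit called 48 of 11627 genes. In it 9.33% of all genes had an unadjusted limma p under 0.05, against 6.36% with all libraries. Melanocyte markers were also lower in wild type replicate 15 than in the other wild type libraries. Among the p63 alphaKO libraries their sum was highest in replicate 10 (1027 CPM), where Fzd6 was lowest (52.99 CPM). Their part in the Fzd6 values was not tested. The log2 fold change of Fzd6 was -0.32 without wild type replicate 13 and -0.34 without replicate 14. Fzd6 lies on chromosome 15 (39006034 to 39038188, plus strand).

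Fzd7, a receptor for beta-catenin signalling, was at 2.74, 6.66 and 7.05 CPM in p63 alphaKO replicates 9, 10 and 11, against 5.34, 5.91 and 9.53 CPM in wild type replicates 13, 14 and 15. The low value was 6 reads in p63 alphaKO replicate 9, and the other p63 alphaKO libraries lay between wild type replicates 14 and 15. The log2 fold change was -0.33 (SE 0.45, 95% interval -1.28 to 0.62, limma adjusted p = 0.957), and 0.02 without p63 alphaKO replicate 9. Fzd10, another receptor of the family, was at 20.55, 13.00 and 7.05 CPM in p63 alphaKO, against 11.63, 24.56 and 6.99 CPM in wild type, each group with a low library near 7 CPM. Its log2 fold change was -0.03 (SE 0.45, 95% interval -0.98 to 0.92, limma adjusted p = 0.998), and its sign turned without p63 alphaKO replicate 11 (0.34) or wild type replicate 14 (0.42). Fzd7 lies on chromosome 1 (59482424 to 59486955, plus strand) and Fzd10 on chromosome 5 (128600844 to 128604093, plus strand).

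Wls, on which secretion of all the ligands depends, was at 291.80, 322.25 and 388.52 CPM in p63 alphaKO replicates 9, 10 and 11, against 280.58, 301.22 and 319.87 CPM in wild type replicates 13, 14 and 15. Replicates 9 and 10 of p63 alphaKO lay at or near the wild type range and replicate 11 above it, the library in which Wnt4, Wnt3 and Wnt10a were lowest. Its log2 fold change was 0.14 (SE 0.21, 95% interval -0.30 to 0.59, limma adjusted p = 0.965), and 0.03 without p63 alphaKO replicate 11. With 639 to 1007 reads per library, the interval bounds the difference more closely than for any other member tested. Wls lies on chromosome 3 (159839672 to 159938664, plus strand).

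**Figure D4:**
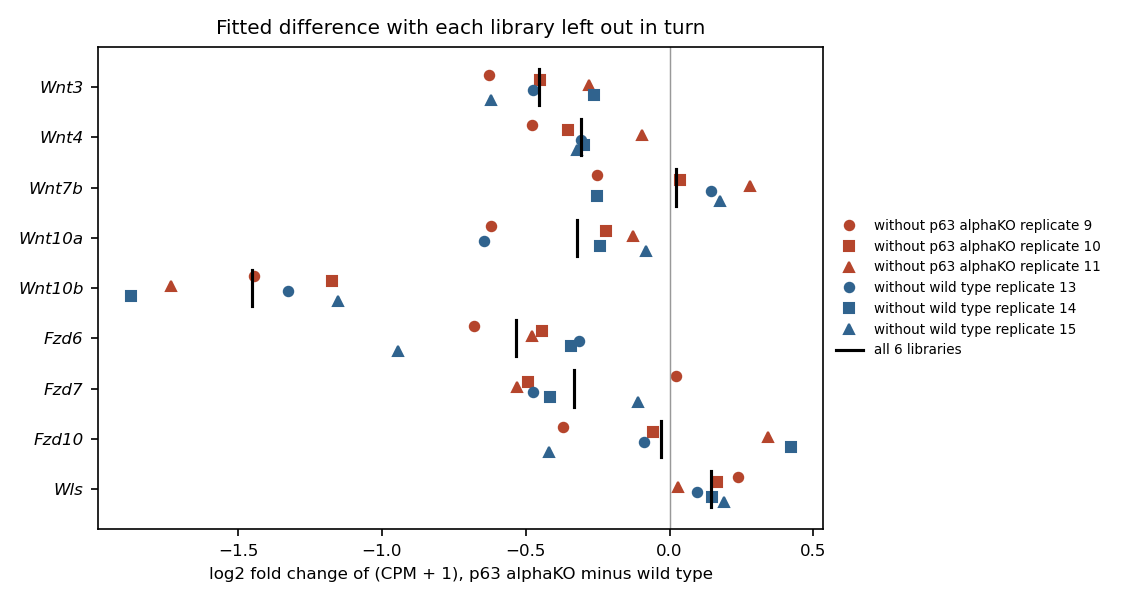
Fitted log2 fold change on log2(CPM + 1), p63 alphaKO minus wild type, for the 9 tested genes with each of the 6 libraries left out in turn (symbols) and with all libraries (black bars). Wnt10b stays between -1.87 and -1.15, Fzd6 reaches -0.94 without wild type replicate 15, and Wnt7b, Fzd7 and Fzd10 have values on both sides of 0.

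The other genes of the pathway were not called either. None of the 3 tested among 13 further ligand genes passed (median log2 fold change -0.21), nor any of 5 tested among 7 further frizzled genes (-0.06), where the median of all tested genes was 0.006. Wnt7a was at 29.2 ± 4.80 CPM in p63 alphaKO and 38.2 ± 16.9 CPM in wild type (log2 fold change -0.31, limma adjusted p = 0.927), and Wnt16 at 21.5 ± 7.54 CPM in p63 alphaKO and 17.2 ± 3.53 CPM in wild type (0.26, 0.954). Fzd3, a polarity receptor that acts beside Fzd6, was at 10.2 ± 1.10 CPM in p63 alphaKO and 14.8 ± 4.64 CPM in wild type (-0.46, 0.891), and Fzd5 stood at 0.15 (0.993). In all, 14 of the 19 Wnt ligand genes and 10 of 10 frizzled genes had a read in some library. Porcn, the enzyme that adds the lipid, was at 42.1 ± 7.04 CPM in p63 alphaKO and 43.4 ± 2.45 CPM in wild type (-0.05, limma adjusted p = 0.997).

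Co-receptors of the pathway had 7 of 8 genes tested, 5 below 0 and none past the threshold (median -0.21). Ryk, a Wnt receptor of the kinase-like type, was at 313.27, 273.59 and 272.73 CPM in p63 alphaKO replicates 9, 10 and 11, against 423.86, 441.42 and 296.37 CPM in wild type replicates 13, 14 and 15. As with Fzd6, wild type replicate 15 lay with the p63 alphaKO libraries and the other wild type libraries lay higher. Ptk7, a co-receptor of the polarity branch, showed the same order of groups at 26.49, 23.33 and 26.45 CPM in p63 alphaKO, against 41.79, 43.83 and 27.64 CPM in wild type, without overlap. The log2 fold changes were -0.41 for Ryk (SE 0.22, limma adjusted p = 0.806) and -0.53 for Ptk7 (SE 0.29, limma adjusted p = 0.813).

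Among secreted inhibitors, 3 of 13 genes were tested and none passed (median 0.57). Sostdc1, an antagonist of Wnt and BMP signals made by epidermis and hair follicle, was at 5.48, 9.66 and 2.94 CPM in p63 alphaKO replicates 9, 10 and 11, against 13.20, 13.99 and 19.69 CPM in wild type replicates 13, 14 and 15. All p63 alphaKO libraries lay below all wild type ones (log2 fold change -1.34, SE 0.42, limma adjusted p = 0.646). Dkk3, of the Dickkopf family, stood at 0.57 (limma adjusted p = 0.888). Of the R-spondin axis, which regulates the amount of frizzled at the cell surface, 3 of 9 genes were tested and none passed (median 0.17). Lgr4 stood at 0.17 (limma adjusted p = 0.992) and Rnf43 at 0.30 (0.975). The R-spondin genes themselves had at most 2 reads in any library.

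Inside the cell, 18 of 19 genes of the beta-catenin route were tested, 12 below 0 and none past the threshold (median -0.09), with the kinase gene Csnk1e at -0.43 (limma adjusted p = 0.888) and the coactivator gene Bcl9 at 0.49 (0.911). Of 17 target and feedback genes, 11 were tested, 8 below 0 and none past the threshold (median -0.16). Among those tested, Rnf43 and Znrf3 are counted in the R-spondin axis too. Axin2, a feedback gene often read as a gauge of the pathway, was at 7.31, 10.66 and 4.11 CPM in p63 alphaKO replicates 9, 10 and 11, against 6.91, 7.46 and 15.25 CPM in wild type replicates 13, 14 and 15, named beyond the rule after its values were seen. Its groups overlapped. Myc, a growth gene with many inputs besides Wnt, was at 12.79, 6.66 and 12.93 CPM in p63 alphaKO, against 31.42, 40.72 and 14.61 CPM in wild type, with no overlap (log2 fold change -1.28, SE 0.40, limma adjusted p = 0.646). Ccnd1, encoding cyclin D1, was at 376.1 ± 115.8 CPM in p63 alphaKO and 524.6 ± 115.7 CPM in wild type (-0.50, limma adjusted p = 0.794). Of 11 planar polarity genes, 10 were tested and none passed (median -0.13), with Celsr1, an atypical cadherin that works with Fzd6, at -0.71 (limma adjusted p = 0.794) and Vangl1 at -0.33 (0.885). Fzd3, given above among the further frizzled genes, is counted in the polarity list too.

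**Figure D5:**
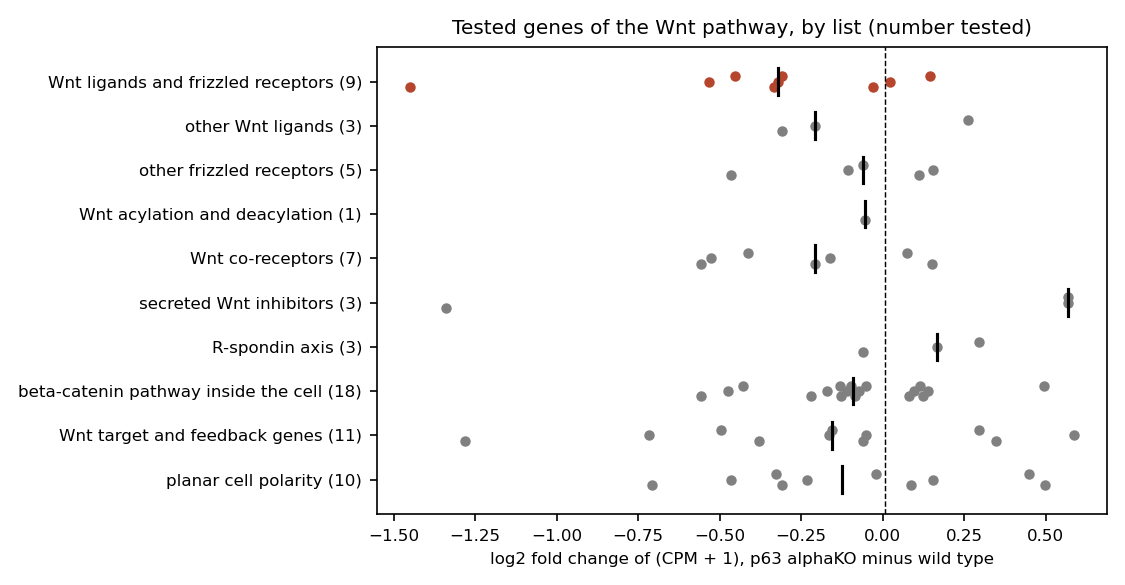
Log2 fold change on log2(CPM + 1), p63 alphaKO minus wild type, of each tested gene of the Wnt pathway, 1 row per list with the number tested in brackets; black bars are list medians and the dashed line is the median of all tested genes (0.006). No point passed the threshold, and the points farthest left are Wnt10b (-1.45), Sostdc1 (-1.34) and Myc (-1.28). Fzd3, Rnf43 and Znrf3 are each in more than 1 row.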

How the data were processed

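The deposited values are CPM, as read from the table itself: the authors' columns each sum to between 999047 and 999508, with 2 decimals. The submitters' processing notes name STAR, HTSeq and mm10, without roles or versions. Annotation, strand setting, filters and any use of molecular identifiers: not given in the sources used here. Per the labels, each column is 1 library, from 3' digital gene expression, which reads near transcript ends. Of values above 0, 100% were within 0.1 read of a whole number, so reads were recovered by dividing by the value of 1 read.

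The 11716 genes whose mean level reached 1 CPM were tested with limma 3.58.1 in R 4.3.3 (eBayes with trend) on log2(CPM + 1), two-sided, with Benjamini-Hochberg adjustment over all tested genes and a threshold of 0.05. A fold change on this scale understates that of low genes. edgeR 4.0.16 and DESeq2 1.42.0 were run on the recovered reads, 11716 and 11713 genes. The fits were tested on simulated data, with changes planted only in genes of at least 5 CPM. Recovery of a gene as low as Wnt10b was therefore not tested. Intervals on reads are exact (Poisson, or conditional on pooled reads) or Wilson, at 95%, and cover counting error only.

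Members and lists were chosen with earlier results of these data known. Named from each further pathway list were genes past the threshold and the 2 of smallest p, and for the member of smallest p the 3 genes most correlated with it. Coordinates are from GENCODE vM21 (GRCm38).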

Additional observations from a re-analysis of the deposited data

How the results depend on the processing

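No member that was tested was called under any alternative run, and Wnt5a was tested only with no limit on low values. Some runs used pseudocounts of 0.5 and 5 CPM, no limit on low values, or a limit of 5 CPM (which also leaves out Wnt10b). Others used quantile or TMM scaling, no variance trend, edgeR or DESeq2, or left out libraries. The signs that turned were those of Wnt7b (-0.25 without p63 alphaKO replicate 9 and -0.25 without wild type replicate 14), Fzd7 (0.023 without p63 alphaKO replicate 9), Fzd10 (0.34 without p63 alphaKO replicate 11 and 0.42 without wild type replicate 14) and Wnt10a (0.11 without both p63 alphaKO replicate 11 and wild type replicate 15). With 1 library left out, the range was -0.25 to 0.28 for Wnt7b, -0.53 to 0.023 for Fzd7 and -0.42 to 0.42 for Fzd10. The number of genes called in the whole table was 2 with a pseudocount of 0.5 and 3 with 5 CPM, 1 with no limit, 2 with a limit of 5 CPM, 0 with no trend (the trend sets the spread per level), 2 by edgeR, 18 by DESeq2, 2 to 13 with 1 library left out and 48 without both libraries that stood apart; apart from the trend the cause was not tested. With no trend, 1 member (Wnt10b) and 827 genes in all (7.06%) had an unadjusted limma p under 0.05. With 1 library left out, Wnt10b was under it in 2 of 6 fits and Fzd6 in 1 of 6. For Wnt10b these left out wild type replicate 14, with 3.69% of all tested genes under it, and p63 alphaKO replicate 11, with 7.69%. For Fzd6 the fit left out wild type replicate 15, with 6.86%. No paired analysis was possible because the groups share no replicate numbers. Depth limits Wnt5a and Wnt10b most, at 7 and 35 reads in all.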

Other observations

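Of the ligand genes, 3 lie beside another Wnt gene in GRCm38: Wnt9b is 24329 bases from Wnt3, Wnt6 is 6194 bases from Wnt10a and Wnt1 is 11707 bases from Wnt10b. Wnt9b and Wnt1 had no read in any library. Wnt6 had 2, 0 and 1 reads in p63 alphaKO replicates 9, 10 and 11 and 0, 0 and 9 reads in wild type replicates 13, 14 and 15. Wnt11 had 0, 1 and 0 reads in p63 alphaKO and 0, 0 and 7 reads in wild type in the same order of replicates, so for both genes most reads came from wild type replicate 15.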
